A study of Mus musculus with 5 samples.

Results

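Pericytes are the mural cells that sit on brain capillaries, and PDGF-B signaling recruits them to the vessel wall. The set described here holds 10 genes, the ligand gene *Pdgfb* and 9 pericyte markers (*Pdgfrb*, *Rgs5*, *Cspg4*, *Anpep*, *Des*, *Vtn*, *Kcnj8*, *Abcc9* and *Ndufa4l2*). They were chosen by name as known pericyte genes out of 34615 gene symbols measured, with earlier results of these data known. RNA was sequenced from microvascular fragments of the brains of 3 wild-type (WT) mice and 2 heterozygous *Ins2-AKITA* mice, with 1 library for each mouse. All were males on a C57BL6 background, between 26 and 38 weeks of age, and the WT mice were littermate controls. *Ins2-AKITA* mice carry a mutated insulin 2 gene whose product damages the insulin-producing beta cells, so that the vessels are exposed to high blood glucose and low insulin together. Beads coated with an antibody to PECAM1, an endothelial surface protein, pulled the fragments out, and pericytes came along only as cells attached to them.

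Endothelial cells secrete PDGF-B, which binds to heparan sulfate near the cell surface and reaches the receptor PDGFRB on neighbouring pericytes. Mice in which this signal is weakened have too few brain pericytes, and in the diabetic retina pericytes are lost from capillaries. The comparison asked how pericyte RNA in brain vessels of hyperglycemic mice stood against that of WT littermates. The values are FPKM, numbers of sequenced fragments scaled to the length of a gene's exons and to the size of the library, which allow the levels of different genes to be compared. In RNA from whole fragments, a smaller number of pericytes and less RNA per pericyte cannot be told apart.

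All 10 genes were detected in every mouse, and all 10 had a mean of at least 1 FPKM, the limit for testing. In WT mice *Rgs5* had the highest mean, 107.5 FPKM, and *Anpep* the lowest, 1.94 FPKM, a ratio of 55.5. *Vtn* came second at 72.7 FPKM, and the WT values of these leading genes overlapped neither each other nor those of any other gene in the set. *Pdgfb*, *Pdgfrb*, *Des* and *Cspg4* followed with means of 21.1, 17.5, 13.6 and 10.8 FPKM, and neighbours among these 4 overlapped. The WT values of *Cspg4* lay above all those of *Abcc9*. *Abcc9*, *Ndufa4l2* and *Kcnj8* had 7.81, 7.59 and 5.37 FPKM, and neighbours in this lower part of the order overlapped, *Kcnj8* and *Anpep* included.

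**Figure D1:**
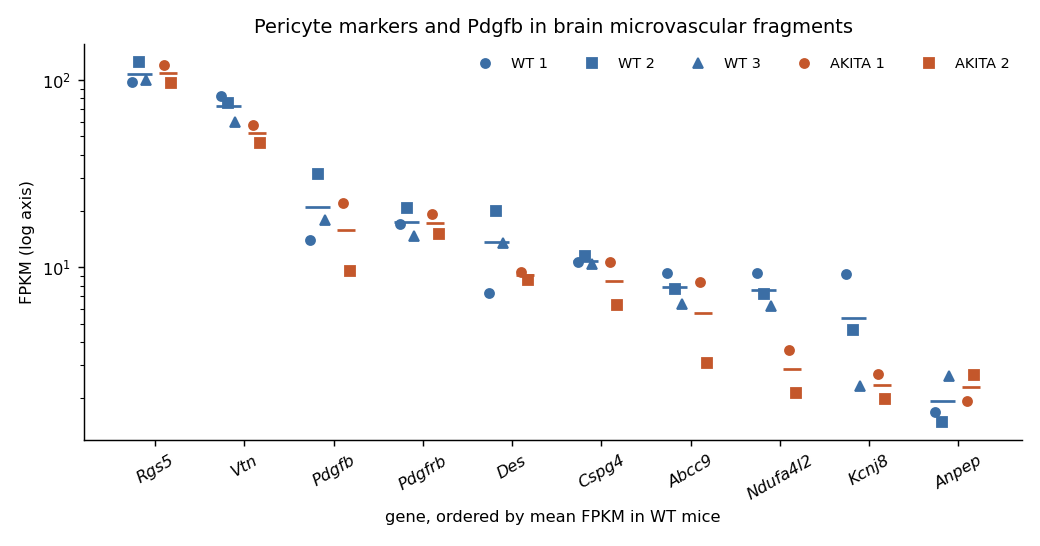
FPKM (log axis) of the 10 genes in each of the 5 mice, with genes ordered by their mean in WT mice. Points are single mice (WT blue, *Ins2-AKITA* orange), lines are group means, and in *Vtn* and *Ndufa4l2* both orange points lie below all blue ones.

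The genotypes were compared with limma on log2(FPKM + 1) over the 16286 symbols that reached the limit, with Benjamini-Hochberg adjustment. None of the 10 genes passed an adjusted p of 0.05, and the smallest adjusted p among them was 0.896. Over all genes limma called 0 (0%) higher and 4 (0.0246%) lower in *Ins2-AKITA* mice, a split that became 58 higher and 30 lower when the values were rescaled to TPM, which gives every library the same sum. At an unadjusted p under 0.05, 0 of the 10 genes were higher, against 1.53% of all genes, and 1 was lower, *Ndufa4l2*, against 2.93% of all genes. Without WT replicate 1, WT replicate 3 or *Ins2-AKITA* replicate 1 the number lower was 2, 3 and 2, and without *Ins2-AKITA* replicate 2 it was 0. *Vtn* and *Ndufa4l2* were the 2 genes of the set with both *Ins2-AKITA* mice below every WT mouse, a pattern found in 10.3% of all genes, and 0 had both above, against 9.24%. The log2 fold change was below 0 for 8 of the 10 genes, against 53.5% of all genes. Its median over the 10 genes was -0.43, beside -0.035 over all genes tested. TPM moved the median of all genes to 1.07 and left none of the 10 genes below 0, while 7 of the 10 lay below the median of all genes on either scale. They were not the same 7, as with TPM *Vtn* moved above that median and *Anpep* below it. Rescaling a mouse moves all its genes by one log2 amount. Moves relative to the median of all genes under TPM therefore come from the 1 added before the log, which weighs most on low values. Summed over all identifiers the FPKM of a mouse ranged from 1531575 to 13025905, and over protein-coding genes from 388605 to 421601. The median of -0.43 depended on single mice, as it was 0.00049 without *Ins2-AKITA* replicate 2, -0.67 without *Ins2-AKITA* replicate 1 and -0.23 without WT replicate 2. *Ins2-AKITA* replicate 2 was under the whole WT range in 7 of the 10 genes, where 27.9% of all genes had it there. *Ins2-AKITA* replicate 1 was under it in 2, against 22.5% of all genes.

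**Figure D2:**
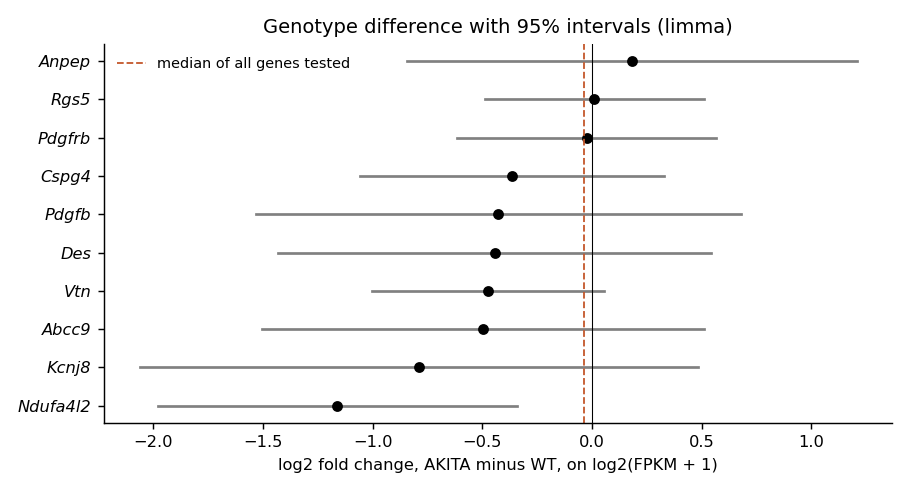
Log2 fold change of each gene (*Ins2-AKITA* minus WT, x axis, on log2(FPKM + 1)) with its 95% interval from limma; the dashed line is the median of all genes tested. The interval of *Ndufa4l2*, -1.98 to -0.34, is the one that leaves out 0.

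*Pdgfb* (ENSMUSG00000000489, minus strand of chromosome 15 of mouse assembly NCBIM37, from 79826330 to 79845238) encodes the ligand, which brain endothelial cells secrete. In the order of their replicate numbers, the WT mice had 13.99, 31.5 and 17.9 FPKM and the *Ins2-AKITA* mice 22.1 and 9.53 FPKM. The second *Ins2-AKITA* mouse had the lowest value and the first lay within the WT range, so the groups overlapped. Group means came to 21.1 ± 9.2 FPKM (SD, n = 3) for WT and 15.8 ± 8.86 FPKM (SD, n = 2) for *Ins2-AKITA*, and the exact two-sided permutation test gave p = 0.6, where the smallest p for 3 mice against 2 is 0.1. On the log2 scale the difference was -0.43 (standard error 0.46, 95% interval -1.53 to 0.68, limma adjusted p = 0.90), and it was 0.14 without *Ins2-AKITA* replicate 2. WT mice themselves differed by 2.25-fold in *Pdgfb*, more than the genotype means did.

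*Pdgfrb* (ENSMUSG00000024620, plus strand of chromosome 18, from 61204804 to 61244715) encodes the receptor tyrosine kinase that takes up this signal in pericytes. It had 17.0, 20.8 and 14.8 FPKM in WT, against 19.3 and 15.0 FPKM in *Ins2-AKITA* mice. Both *Ins2-AKITA* values lay inside the WT range. The log2 difference was -0.024 with a standard error of 0.24, and its 95% interval of -0.62 to 0.57 leaves room for a change of that size in either direction (limma adjusted p = 0.993). *Rgs5* (ENSMUSG00000026678, plus strand of chromosome 1, from 171585632 to 171625944) encodes a regulator of G protein signaling that is abundant in brain pericytes. It had 97.6, 124.7 and 100.3 FPKM in WT, against 120.4 and 96.2 FPKM in *Ins2-AKITA* mice, a log2 difference of 0.011 (standard error 0.21, 95% interval -0.49 to 0.51, limma adjusted p = 0.996). Its lowest value belonged to *Ins2-AKITA* replicate 2 and its highest to WT replicate 2. The sign of both differences turned with the scaling or with the mice left out.

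*Pdgfrb* and *Rgs5* followed each other closely from mouse to mouse. After the mean of each gene over the 5 mice was taken off, their log2(FPKM + 1) values differed by a root mean square of 0.077, the smallest of the 45 pairs that the 10 genes form. The next pairs were *Cspg4* with *Vtn* at 0.18 and *Pdgfrb* with *Cspg4* at 0.22, and the widest was *Des* with *Kcnj8* at 0.86. This closeness was not particular to *Rgs5*, as 34 of 10464 other protein-coding genes with a mean of at least 5 FPKM were at least as near to it as *Rgs5* was. The nearest were *Gsn*, *Pam* and *Hdac6*, at 0.042, 0.042 and 0.044. *Gsn*, which encodes the actin-severing protein gelsolin, had 28.7, 37.0 and 26.5 FPKM in WT, against 32.3 and 25.6 FPKM in *Ins2-AKITA* mice.

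*Cspg4* (ENSMUSG00000032911, plus strand of chromosome 9, from 56712911 to 56747677) encodes the NG2 proteoglycan of mural cells, which is also carried by oligodendrocyte precursors. It varied least among WT mice, with 10.7, 11.4 and 10.4 FPKM, and had 10.7 and 6.26 FPKM in *Ins2-AKITA* mice. The first *Ins2-AKITA* mouse was inside the narrow WT range and the second far below it (log2 difference -0.36, standard error 0.29, limma adjusted p = 0.90). The difference was -0.021 without *Ins2-AKITA* replicate 2 and -0.70 without *Ins2-AKITA* replicate 1. The coefficient of variation over WT mice was 5.01% for *Cspg4*, against 13.9% for *Rgs5* and 64.8% for *Kcnj8*. *Anpep* (ENSMUSG00000039062, minus strand of chromosome 7, from 86966689 to 86993096) encodes aminopeptidase N, whose protein is widely used to stain brain pericytes. Its RNA was scarce, with 1.69, 1.49 and 2.64 FPKM in WT, against 1.94 and 2.68 FPKM in *Ins2-AKITA* mice. It was the one gene of the set for which *Ins2-AKITA* replicate 2 had the highest value (log2 difference 0.18, standard error 0.42, 95% interval -0.84 to 1.21, limma adjusted p = 0.96), and as single mice were left out the difference ran from 0.022, without *Ins2-AKITA* replicate 2, to 0.35, without WT replicate 3.

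*Des* (ENSMUSG00000026208, plus strand of chromosome 1, from 75356904 to 75365154) encodes desmin, an intermediate filament of pericytes and smooth muscle cells. It had 7.33, 20 and 13.5 FPKM in WT, against 9.49 and 8.60 FPKM in *Ins2-AKITA* mice. WT replicate 1 was the lowest of all mice, so the groups overlapped although the *Ins2-AKITA* values lay below the other WT mice (log2 difference -0.44, standard error 0.41, limma adjusted p = 0.90). The log2 difference lay between -0.80 and -0.13 as single mice were left out, lowest without WT replicate 1 and nearest to 0 without WT replicate 2. Exons of *Des* share 220 bases with *Gm15179* on the opposite strand, and whether reads were assigned by strand is not given in the sources used here.

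*Vtn* (ENSMUSG00000017344, plus strand of chromosome 11, from 78312593 to 78315826) encodes vitronectin, a matrix protein that pericytes deposit in the brain. It had 82.4, 75.8 and 59.97 FPKM in WT, against 57.7 and 46.2 FPKM in *Ins2-AKITA* mice. Both *Ins2-AKITA* mice lay below every WT mouse, the first by a narrow margin to WT replicate 3. The *Ins2-AKITA* mean of 51.9 ± 8.15 FPKM (SD, n = 2) was 28.6% lower than the WT mean of 72.7 ± 11.5 FPKM (SD, n = 3), with an exact two-sided permutation p of 0.2. The log2 difference was -0.47 (standard error 0.22, 95% interval -1.002 to 0.054, limma adjusted p = 0.896), with an unadjusted limma p of 0.071. With TPM it was 0.086 above the median of all genes, a move that comes from the 1 added before the log.

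The most abundant genes of the set, *Rgs5* and *Vtn*, differed from each other in how they varied between mice, a contrast chosen after their values were seen. The ratio of *Vtn* to *Rgs5* FPKM was 0.844, 0.608 and 0.598 in WT, against 0.479 and 0.480 in *Ins2-AKITA* mice, so the groups did not overlap. *Vtn* by itself was below the WT range in both *Ins2-AKITA* mice, as were 10.3% of all genes. The share of all gene pairs whose ratio did not overlap between the groups was not computed. Their promoters, the 250 bases before the start of transcription, are shown here for context, from the RefSeq table for GRCm38.p6, a later assembly than that of the FPKM files. Capitals mark matches to CCAAT (or ATTGG on the other strand) and to TATAAA (or TTTATA).
Rgs5, chr1:169655251-169655500, plus strand: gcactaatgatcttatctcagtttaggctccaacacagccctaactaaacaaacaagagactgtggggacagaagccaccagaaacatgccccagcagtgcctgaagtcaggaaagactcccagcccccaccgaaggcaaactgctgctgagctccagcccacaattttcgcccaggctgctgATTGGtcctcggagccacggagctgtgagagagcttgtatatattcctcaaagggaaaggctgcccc
Vtn, chr11:78498870-78499119, plus strand: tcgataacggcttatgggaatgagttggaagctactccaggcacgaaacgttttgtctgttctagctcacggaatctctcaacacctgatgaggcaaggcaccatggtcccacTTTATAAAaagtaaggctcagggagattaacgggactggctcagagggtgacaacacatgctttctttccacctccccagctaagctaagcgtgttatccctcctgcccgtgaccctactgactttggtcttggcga
The *Rgs5* promoter held 1 CCAAT match, which began 67 bases before the start, and CCAAT was found in 33.8% of 32851 promoters of the same length. The *Vtn* promoter held TATAAA, 135 bases before the start, overlapping a TTTATA match of the other strand, and 12.4% of promoters held such a match. The letters GTAAACA, one spelling of the core bound by forkhead factors such as FOXF2 and FOXC1, were in neither of these windows. Nor were ACGTG, one spelling of the core bound by hypoxia-inducible factors. On either strand 3.17% and 16.6% of promoters held them. Other spellings of these cores were not searched, so absence of binding sites cannot be read from this. The table held promoters for 7 of the 10 genes, with none for *Pdgfb*, *Pdgfrb* and *Ndufa4l2*.

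*Kcnj8* and *Abcc9* encode the pore and the regulatory subunit of an ATP-sensitive potassium channel of pericytes, and the genes are neighbours on the minus strand of chromosome 6, *Kcnj8* (ENSMUSG00000030247) from 142513459 to 142519876 and *Abcc9* (ENSMUSG00000030249) from 142536382 to 142650794. *Kcnj8* had 9.17, 4.63 and 2.33 FPKM in WT, against 2.71 and 1.98 FPKM in *Ins2-AKITA* mice. WT replicate 3 lay between the *Ins2-AKITA* mice, and WT mice differed by 3.94-fold. *Abcc9* had 9.36, 7.69 and 6.39 FPKM in WT, against 8.36 and 3.09 FPKM in *Ins2-AKITA* mice, with only *Ins2-AKITA* replicate 2 outside the WT range. The log2 differences were -0.79 for *Kcnj8* (standard error 0.53, limma adjusted p = 0.896) and -0.50 for *Abcc9* (standard error 0.42, limma adjusted p = 0.90), and without *Ins2-AKITA* replicate 2 that of *Abcc9* was 0.10. That of *Kcnj8* was -0.38 without WT replicate 1 and -1.18 without WT replicate 3. The ratio of *Kcnj8* to *Abcc9* FPKM ranged from 0.364 to 0.979 in WT and was 0.324 and 0.642 in *Ins2-AKITA* mice. *Kcnj8* rested on an estimated 6 and 5 fragments in the *Ins2-AKITA* mice, so counting error enters these RNA ratios.

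*Ndufa4l2* (ENSMUSG00000040280, plus strand of chromosome 10, from 126951995 to 126954208) encodes a mitochondrial protein that is induced by hypoxia and is abundant in brain pericytes. It had 9.34, 7.21 and 6.22 FPKM in WT, against 3.62 and 2.13 FPKM in *Ins2-AKITA* mice. Both *Ins2-AKITA* mice lay below every WT mouse, with few fragments behind the values. The *Ins2-AKITA* mean of 2.87 ± 1.06 FPKM (SD, n = 2) was 62.1% lower than the WT mean of 7.59 ± 1.59 FPKM (SD, n = 3), and the exact two-sided permutation p was 0.1, the smallest it can be. The log2 difference of -1.16 was the largest of the set (standard error 0.34, limma adjusted p = 0.896, between 0.574 and 0.998 over the alternatives), and with TPM it was -0.95 relative to the median of all genes. Its unadjusted limma p was 0.013. The log2 difference lay between -1.44 and -0.88 as single mice were left out, and without *Ins2-AKITA* replicate 2 the unadjusted limma p was 0.077.

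How many fragments stand behind these values is not listed in the files, but it could be estimated from the steps between low FPKM values of genes with a single transcript. The 5 libraries came to 1168783, 1319839 and 2852994 fragments in WT, against 1126058 and 1285415 in *Ins2-AKITA* mice, and 96.7% to 97.6% of the values used in each mouse fell within 0.02 of a whole fragment. With these depths *Ndufa4l2* rested on 8, 7 and 13 fragments in WT and on 3 and 2 in *Ins2-AKITA* mice. Exact 95% Poisson intervals for the latter were 0.619 to 8.77 and 0.242 to 7.23 fragments, and those of the WT mice reached down to 2.81. Over the pooled libraries the *Ins2-AKITA* to WT ratio of *Ndufa4l2* fragments per library fragment was 0.396, with an exact 95% interval of 0.119 to 1.04 that covers counting error only. The gene is short, with 960 bases of exon, of which 14 are shared with *Shmt2* on the opposite strand. A floor of 3 fragments corresponds to 3.62 FPKM in *Ins2-AKITA* replicate 1 and 3.18 FPKM in replicate 2, so the first was at this floor and the second under it.

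*Kcnj8* rested on 21, 12 and 13 fragments in WT, against 6 and 5 in *Ins2-AKITA* mice, a pooled ratio of 0.53 with an exact interval of 0.247 to 1.04. *Anpep*, which has several transcripts, rested on about 7, 7 and 27 fragments in WT, against 8 and 12 in *Ins2-AKITA* mice when its longest transcript was used. *Pdgfb* had 44, 112 and 137 fragments in WT, against 67 and 33 in *Ins2-AKITA* mice. The exact 95% intervals of *Pdgfb* in WT replicate 1, 31.97 to 59.1, and in WT replicate 2, 92.2 to 134.8, did not overlap, although the libraries were of similar size. *Rgs5* had the most, about 441 to 1107 fragments in WT and 479 to 525 in *Ins2-AKITA* mice, and its pooled ratio of 1.02 had an interval of 0.944 to 1.10. Such intervals describe the libraries and leave out the spread between mice.

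**Figure D3:**
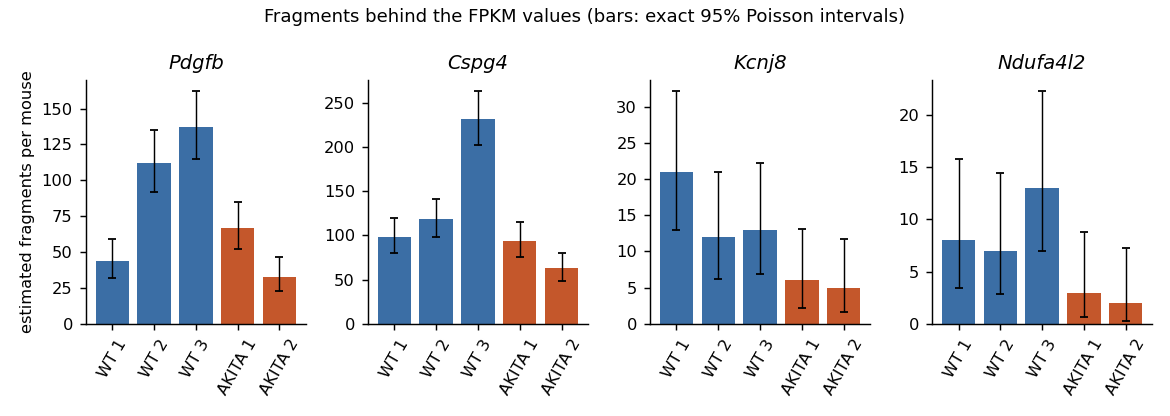
Estimated number of fragments (y axis, from 0) per mouse for the 4 genes of the set with a single annotated transcript; error bars are exact 95% Poisson intervals. *Ndufa4l2* and *Kcnj8* rest on at most 21 fragments in any mouse, and WT replicate 3 is the deepest library.

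The fragments were captured through the endothelium, and endothelial RNA varied between the mice as well. All 12 genes of an endothelial list were detected in every mouse, and their summed level was 670.2 to 1080.0 FPKM in WT and 559 to 696 FPKM in *Ins2-AKITA* mice. Of these genes 11 had a log2 fold change below 0, where 53.5% of all genes did. Their median was -0.43, the same as that of the pericyte set. With TPM it was 0.074 above that of all genes, a move that comes from the 1 added before the log. *Pecam1*, the bead target, had 92.8, 91.0 and 65.8 FPKM in WT, against 63.1 and 58.3 FPKM in *Ins2-AKITA* mice. *Cdh5* and *Ly6c1* were the 2 of the 12 at an unadjusted p under 0.05 in limma, both lower, with log2 differences of -0.58 and -1.08, against 2.93% of all genes. Astrocyte genes lay to the other side, with 8 of 8 above 0 and a summed level of 2246 to 3150 FPKM in WT and 3482 to 4120 FPKM in *Ins2-AKITA* mice. The astrocyte glutamate transporter *Slc1a2* alone had 1013 to 1507 FPKM in WT, against 1897 and 2110 FPKM in *Ins2-AKITA* mice, far above any pericyte gene. None of the genes on either list passed an adjusted p of 0.05 in limma, and the part of these shifts in the pericyte values was not tested.

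A ratio within a mouse does not depend on how its library is scaled. The ratio of *Pdgfrb* to *Pecam1* FPKM was 0.184, 0.228 and 0.224 in WT, against 0.306 and 0.257 in *Ins2-AKITA* mice. Both *Ins2-AKITA* mice were above all WT mice, by 1.33-fold in the mean (0.212 ± 0.025 against 0.282 ± 0.035, SD, n = 3 and n = 2), with an exact two-sided permutation p of 0.1, the smallest possible. *Rgs5* to *Pecam1* was 1.05, 1.37 and 1.52 in WT, against 1.91 and 1.65 in *Ins2-AKITA* mice, again without overlap. *Pecam1* itself was lower in both *Ins2-AKITA* mice (63.1 and 58.3 FPKM) than in any WT mouse (65.8 to 92.8 FPKM). A gene with an unchanged level therefore rises relative to *Pecam1*. The share of all genes whose ratio to *Pecam1* did not overlap between the groups was not computed. *Vtn* to *Pecam1* overlapped, with 0.888, 0.833 and 0.911 in WT, against 0.914 and 0.792 in *Ins2-AKITA* mice. The ligand to receptor ratio, *Pdgfb* to *Pdgfrb*, was 0.822, 1.52 and 1.21 in WT, against 1.14 and 0.636 in *Ins2-AKITA* mice, and overlapped too. For the sum of all 9 pericyte markers over the sum of the 12 endothelial genes the values were 0.257, 0.253 and 0.323 in WT, against 0.337 and 0.326 in *Ins2-AKITA* mice, 1.19-fold higher in the mean. *Rgs5* and *Vtn* made up 73.3% to 78.2% of that pericyte sum, and with both left out the groups overlapped and the fold was 1.04. In the endothelial sum *Slc2a1* had the highest WT mean, with 273.3, 166.9 and 137.0 FPKM in WT, against 142.9 and 105.5 FPKM in *Ins2-AKITA* mice. Whether the groups stay apart with *Slc2a1* left out was not computed.

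**Figure D4:**
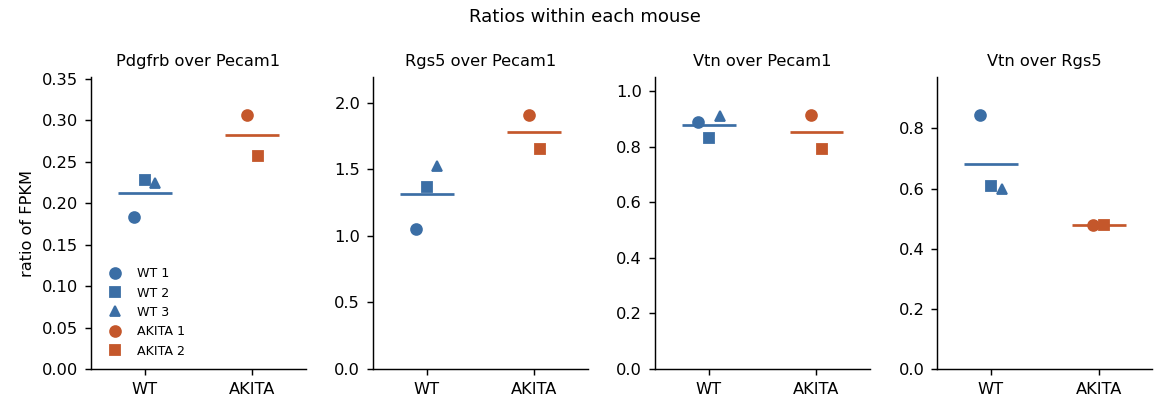
Ratios of FPKM within each mouse (y axes from 0) for *Pdgfrb*, *Rgs5* and *Vtn* over *Pecam1* and for *Vtn* over *Rgs5*; points are mice and lines are group means. *Pdgfrb* and *Rgs5* lie higher relative to *Pecam1* in both *Ins2-AKITA* mice, *Vtn* overlaps, and *Vtn* lies lower relative to *Rgs5*. The last contrast was chosen after the values were seen, and how often other ratios separate the groups was not computed. *Pecam1* itself was lower in both *Ins2-AKITA* mice than in every WT mouse.

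Other genes of the PDGF pathway lay on both sides of 0 on the deposited scale. Lists of further PDGF ligands and receptors, receptor signaling, and ligand processing and retention held 37 genes. Of these 20 had a log2 fold change below 0 and 17 above, and 0 passed limma at an adjusted or an unadjusted p of 0.05. In 6 of the 37 both *Ins2-AKITA* mice were above the WT range and in 3 below it, against 9.24% and 10.3% of all genes. The median of the 37 was -0.010 and lay within 0.1 of the median of all genes. With TPM it lay 0.27 above the median of all genes, a move that comes from the 1 added before the log. The medians of these 3 lists were 0.18, 0.0093 and -0.19 in the order named. Among the ligands, *Pdgfa* differed most between the *Ins2-AKITA* mice, with 26.1, 20.1 and 29.2 FPKM in WT, against 12.4 and 63.9 FPKM in *Ins2-AKITA* mice, and so both below and above the WT range. *Pdgfc* and *Pdgfd* overlapped, from 1.98 to 5.95 and from 5.54 to 7.72 FPKM over WT mice. *Pdgfra*, the receptor of oligodendrocyte precursors and fibroblasts, had 15.8, 16.4 and 13.5 FPKM in WT, against 16.96 and 17.7 FPKM in *Ins2-AKITA* mice, no overlap but a log2 difference of 0.18 (standard error 0.21). *Pdgfrl*, a gene related to the receptors, lay between 0.381 and 2.36 FPKM in all mice.

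In the receptor signaling list the extremes were the adaptor *Grb2*, with 53.7, 75.3 and 57.8 FPKM in WT, against 81.8 and 85.0 FPKM in *Ins2-AKITA* mice (log2 difference 0.43, standard error 0.21), and the phospholipase *Plcg1*, with 90.8, 70.4 and 49.1 FPKM in WT, against 53.0 and 36.2 FPKM in *Ins2-AKITA* mice (log2 difference -0.62, standard error 0.31). *Grb2* did not overlap between the groups and *Plcg1* did. Heparan sulfate holds PDGF-B near the endothelium, and among its genes the extremes were *Hs2st1*, a sulfotransferase, at 0.60 (standard error 0.29) and *Sdc2*, the core protein syndecan-2, at -0.62 (standard error 0.28). *Hs2st1* had 10.3, 13.3 and 9.40 FPKM in WT, against 21.4 and 13.5 FPKM in *Ins2-AKITA* mice. *Sdc2* had 28.1, 26.6 and 17.2 FPKM in WT, against 13.2 and 16.8 FPKM in *Ins2-AKITA* mice, a narrow gap between the groups.

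A further list of 24 pericyte-enriched genes lay to the same side as the markers. All 24 were detected in every mouse, and 18 had a log2 fold change below 0, where 53.5% of all genes did. The 6 above 0 were *Enpep*, *Higd1b*, *Gucy1a3*, *Gucy1b3*, *Lama2* and *Slc38a11*. The median was -0.28, while 0 passed limma at an adjusted or an unadjusted p of 0.05. In 4 of them, *Mcam*, *Pla1a*, *Foxc1* and *S1pr3*, named after their values were seen, both *Ins2-AKITA* mice were below the WT range, and in 1, *Gucy1b3*, both were above it, against 10.3% and 9.24% of all genes. *Pla1a* was scarce, with 1.02 and 0.89 FPKM in the *Ins2-AKITA* mice. *Foxc1*, a forkhead transcription factor of brain mural cells, had 18.9, 19.1 and 12.6 FPKM in WT, against 12.5 and 9.71 FPKM in *Ins2-AKITA* mice. *Gucy1b3*, a subunit of the nitric oxide receptor, had the highest log2 difference, 0.24 (standard error 0.21). The lowest, -1.33 (standard error 0.56), belonged to *Art3*, with 17.6, 12.1 and 8.54 FPKM in WT, against 1.88 and 8.66 FPKM in *Ins2-AKITA* mice, so that only *Ins2-AKITA* replicate 1 was outside the WT range. *Ins2-AKITA* replicate 2 was under the WT range in 11 of the 24 genes and replicate 1 in 6, where 27.9% and 22.5% of all genes had them there. With TPM 16 of the 24 lay below the median of all genes, beside 17 on the deposited scale.

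Among 16 genes of signals between pericytes and endothelium other than PDGF-B, 10 had a log2 fold change below 0 and 6 above, with a median of -0.16. The extremes were the angiopoietins, of which pericytes make *Angpt1* and endothelial cells *Angpt2*. *Angpt1* had 2.55, 3.95 and 3.31 FPKM in WT, against 5.50 and 5.40 FPKM in *Ins2-AKITA* mice, and *Angpt2* lay to the opposite side, both without overlap. Among the 16 genes both *Ins2-AKITA* mice were above the WT range in 1 and below it in 4, against 9.24% and 10.3% of all genes. *Angpt2* and *Eng*, the endothelial co-receptor endoglin, were the 2 of the 16 at an unadjusted p under 0.05 in limma, both lower, against 2.93% of all genes, with log2 differences of -1.03 (standard error 0.38) and -0.73 (standard error 0.22) and a Benjamini-Hochberg adjusted p of 0.896 each.

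Smooth muscle cells share *Des* and the channel genes with pericytes, and their contractile genes were read as a list of 10. All 10 had a log2 fold change below 0, with a median of -0.60 and a summed level of 396 to 449 FPKM in WT and 262 to 329 FPKM in *Ins2-AKITA* mice. In 6 of the 10 both *Ins2-AKITA* mice were below the WT range, against the 10.3% of all genes given above. With TPM 7 of the 10 lay below the median of all genes, beside 9 on the deposited scale. *Smtn*, which encodes smoothelin, had 31.1, 22.6 and 24.7 FPKM in WT, against 13.6 and 12.6 FPKM in *Ins2-AKITA* mice (log2 difference -0.94, standard error 0.22, limma adjusted p = 0.896), and its unadjusted limma p was 0.0052. *Acta2*, *Tagln* and *Myh11* were also at an unadjusted p under 0.05 in limma, with log2 differences of -0.60, -0.70 and -0.61, which made 4 of the 10 lower at that threshold, against 2.93% of all genes. The list ran from *Cnn1* at -0.98 to *Actg2* at -0.0027. The part of smooth muscle RNA in the values of *Des*, *Cspg4*, *Kcnj8* and *Abcc9* was not tested.

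**Figure D5:**
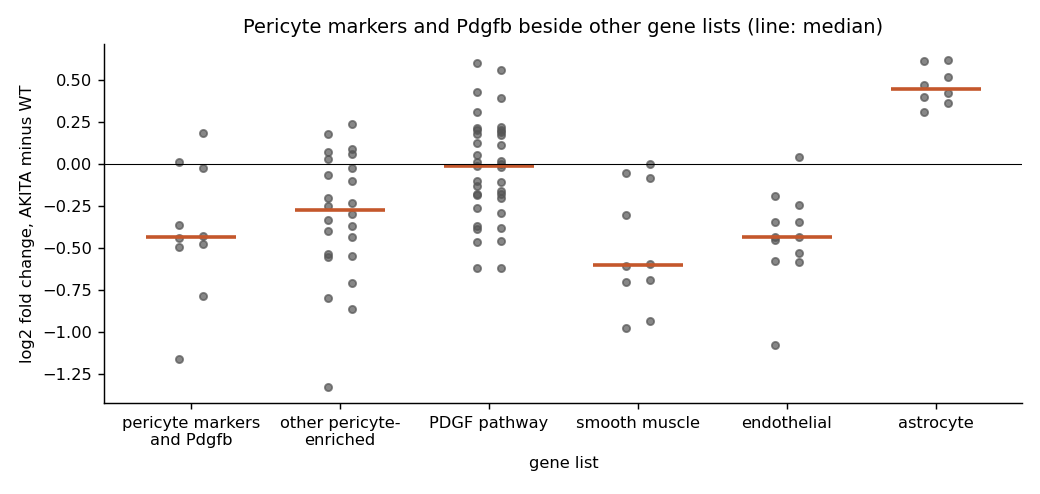
Log2 fold change (*Ins2-AKITA* minus WT, y axis) of each gene in 6 lists, with the median of each list as a line. The medians are -0.43 for the pericyte markers with *Pdgfb*, -0.28 for other pericyte-enriched genes, -0.010 for the PDGF pathway, -0.60 for smooth muscle, -0.43 for endothelium and 0.45 for astrocytes, all on the deposited FPKM scale; with TPM all medians lay above 0.

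Perivascular fibroblast genes were low, with a summed level of 58.8 to 96.0 FPKM in WT, against 72.0 and 60.7 FPKM in *Ins2-AKITA* mice, and *Lum*, the one of them below the limit for testing, was listed at 0 in 1 mouse. Oligodendrocyte precursor genes, which matter for *Cspg4*, summed to 124.7 to 144.3 FPKM in WT, against 151.5 and 168.4 FPKM in *Ins2-AKITA* mice, with 4 of 6 above 0. Both *Ins2-AKITA* mice were above the WT range in 3, *Pdgfra*, *Cspg5* and *Olig2*, and below it in 1, *Sox10*, against 9.24% and 10.3% of all genes. *Cspg5* had 42.29, 55.91 and 66.15 FPKM in WT, against 74.96 and 85.14 FPKM in *Ins2-AKITA* mice. *Olig2* had 11.62, 9.93 and 12.06 FPKM in WT, against 17.25 and 15.13 FPKM in *Ins2-AKITA* mice. *Sox10* had 14.1, 16.7 and 11.8 FPKM in WT, against 7.67 and 9.76 FPKM in *Ins2-AKITA* mice. Neuronal, oligodendrocyte and microglial lists had medians of 0.21, 0.074 and 0.066, and erythroid genes one of -1.09. *Sox10* and *Hba-a2* were at an unadjusted p under 0.05 in limma, both lower, against 2.93% of all genes. None of these genes passed an adjusted p of 0.05 in limma.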

How the data were processed

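Total RNA from PECAM1 bead-captured brain microvascular fragments was depleted of ribosomal RNA and made into stranded libraries. Per the labels and the study's methods, the authors mapped reads to NCBIM37 with TopHat2 2.0.4, filtered duplicated reads with Picard 1.92, used Cufflinks 2.2.1 and deposited 1 FPKM value per Ensembl identifier and mouse; the program behind the single-mouse values is not given in the sources used here. Filtering duplicates can lower the FPKM of abundant genes.

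Of 37982 identifiers, 37197 matched the GENCODE vM1 annotation of NCBIM37, and identifiers with one symbol were summed. limma 3.58.1 (R 4.3.3; lmFit, eBayes with a trend, genotype only, two-sided) was fitted to log2(FPKM + 1) for symbols with a mean of at least 1 FPKM, since the count-based test of Cufflinks cannot be run on FPKM. Fold changes on this scale understate those of low genes. Exact permutation tests used all 10 splits of the 5 mice, and p-values measure the spread between these mice. Fragment numbers were estimated from single-transcript genes of at least 1500 bases at up to 20 fragments, as FPKM times length less 223 to 227 bases; of the 20 values of the 4 single-transcript genes described, 19 came within 0.1 of a whole number. For the other genes the longest transcript was used. Intervals are at 95% and cover counting error only.

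The 10 genes, the gene lists, the tests and the alternatives were chosen with earlier results of these data known; all alternatives for the ratio to endothelial genes were added after the values were seen. Genes named were all 10, each further PDGF ligand and receptor, and every listed gene at an unadjusted p under 0.05 in limma. Also named were the nearest gene pairs and the 3 genes nearest to *Pdgfrb*. From other lists only some of the extremes and of the most abundant genes were named, and further genes after their values were seen. Lists of other cell types are mostly given as sums and medians. The lists were further pericyte-enriched genes, 3 PDGF lists, other pericyte-endothelium signals, and markers of smooth muscle, endothelium, fibroblasts, astrocytes, oligodendrocytes and their precursors, neurons, microglia and erythroid cells. Alternatives were other pseudocounts, filters, scalings, priors, a replicate block and leaving out each mouse. Permutation tests, intervals and figures were made in Python 3.11.15.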

Additional observations from a re-analysis of the deposited data

How the results depend on the processing

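Under 15 alternatives no gene of the set passed an adjusted p of 0.05 in limma, and of 148 single-gene log2 differences 128 kept their sign and 20 reversed. TPM, which rescales each mouse to one sum over all identifiers, moved the median of all genes to 1.07 and so the 10 genes to a median of 0.82, where *Pdgfb* was at 0.95, *Pdgfrb* 1.32, *Cspg4* 0.84, *Des* 0.80, *Vtn* 1.16, *Kcnj8* 0.32, *Abcc9* 0.62 and *Ndufa4l2* 0.12. Relative to that shift the 10 genes were at -0.25, beside -0.40 without rescaling, and *Ndufa4l2* at -0.95. The move from -0.40 to -0.25 comes from the 1 added before the log, as rescaling alone shifts all genes of a mouse equally. *Pdgfrb* turned to 0.0014 with median-ratio scaling and 0.023 with quantile normalization, and *Rgs5* to -0.035 with a common protein-coding sum, -0.052 with quantile normalization and -0.035 with the replicate block. The cause of the reversals other than TPM was not tested.

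With the replicate number as a block, 3 genes of the set (*Kcnj8*, *Vtn* and *Ndufa4l2*), 2 further pericyte-enriched genes and 2 PDGF pathway genes were at an unadjusted p under 0.05, against 1, 0 and 0, beside 1249 and 726 of all genes. Same-numbered mice had correlations of their deviations of 0.051 and -0.034; with 2 *Ins2-AKITA* mice these deviations are opposites, so the pairing cannot be judged and the numbers were not used. In that block fit WT replicate 3 has no partner. At that threshold TPM gave 0 genes of the set and 2 of the pathway, and the protein-coding sum 1 further pericyte-enriched and 1 pathway gene. Over all genes, the adjusted calls were 58 higher with TPM and 1 with a constant prior, and lower 30 with TPM and 2 with no filter (over the 21557 symbols above 0 in some mouse), with a filter at 5 FPKM and with a constant prior. The filter at 5 FPKM removed *Anpep* and *Kcnj8*.

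With each mouse left out, where a lone *Ins2-AKITA* mouse is assumed to vary like the WT mice, the adjusted calls ranged from 0 to 10 higher and 1 to 6 lower. The genes of the set at an unadjusted p under 0.05 ranged from 0 to 3, further pericyte-enriched genes from 0 to 3, pathway genes from 0 to 2, and the median of the set from -0.67 to 0.00049. Single genes ranged from -0.99 to 0.14 (*Pdgfb*), -0.20 to 0.15 (*Pdgfrb*), -0.15 to 0.17 (*Rgs5*) and -1.09 to 0.10 (*Abcc9*). The pericyte to endothelial fold of 1.19 ranged from 1.14 to 1.30, was 1.04 without *Rgs5* and *Vtn*, and 1.03 from mean log2 values. Depth limits *Ndufa4l2*, *Kcnj8* and *Anpep* most.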
